A study of Mus musculus with 6 samples.

Results

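Messenger RNA processing genes were compared between Akt1 knockout and wild-type mouse mammary tumour cells, using the probe sets whose deposited gene symbol starts with Sf3, Sfrs, Hnrp, Hnrnp, Snrp, Prpf, Ddx, Dhx, Rbm and a digit, Cpsf, Cstf, Lsm, Thoc or Zc3h. The rule found 120 probe sets with 73 symbols, out of 5604 non-control probe sets with a symbol and 45037 non-control probe sets on the array. No member had a symbol that began with Hnrnp, the current spelling of Hnrp. The authors filled in a symbol only where their own p-value for knockout against wild type was under 0.05, so that the same comparison chose the members. Their differences between the genotypes are therefore a description and support nothing by themselves, and probe sets of the same genes that did not differ are not seen here.

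The tested lines were akt(-/-) 72, 75 and 116, and they were set against the akt(+/+) lines 31, 101 and 102. Every line was grown out of a spontaneous mammary tumour of an MMTV-ErbB2 mouse, so both genotypes carry the ErbB2 oncogene under a viral promoter that is active in mammary epithelium, and every line was kept in culture for 25 passages. Each line gave 1 array, and the labels do not say which lines came from separate animals, so that a p-value here covers only how these 6 arrays vary. The sources used here give neither the age of the mice nor where in the gene Akt1 was disrupted. Values are log2 expression as the authors deposited them, and every difference is akt(-/-) minus akt(+/+).

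Splicing removes introns from the primary transcript. U1 snRNP, a particle of small nuclear RNA and protein, marks the start of an intron, U2 snRNP binds the branch site near its end, and the U4/U6.U5 particle then joins to form the active spliceosome. SR proteins and hnRNP proteins bind the transcript and help to choose which exons are kept, while DEAD-box and DEAH-box helicases rearrange RNA and protein complexes at each step and also act in ribosome assembly, translation and decay. Cleavage and polyadenylation factors make the end of the message, and the THO complex links it to nuclear export. Work in human cells has placed SR proteins and their SRPK kinases downstream of Akt.

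The promoters of 5 member genes are shown because they belong to the 3 genes with a probe set past an adjusted p of 0.05 (Hnrnpab, Sf3b2 and Zc3h13, all lower in the knockout lines) and to the 2 genes of largest positive difference, ranked by each gene's brightest probe set among those whose probe sets were all higher and whose promoter was listed (Hnrnpdl and Ddx1). Each is the 250 bases before the annotated start, 5′ to 3′ on the gene's strand, from RefSeq on GRCm38.p6. Hnrnpab lies at chr11:51606882-51607131 on the minus strand, Sf3b2 at chr19:5295458-5295707 (minus), Zc3h13 at chr14:75284116-75284365 (plus), Hnrnpdl at chr5:100039223-100039472 (minus) and Ddx1 at chr12:13249175-13249424 (minus). Capitals mark a match, on either strand, to 1 of 7 motifs named in the next paragraph.
Hnrnpab: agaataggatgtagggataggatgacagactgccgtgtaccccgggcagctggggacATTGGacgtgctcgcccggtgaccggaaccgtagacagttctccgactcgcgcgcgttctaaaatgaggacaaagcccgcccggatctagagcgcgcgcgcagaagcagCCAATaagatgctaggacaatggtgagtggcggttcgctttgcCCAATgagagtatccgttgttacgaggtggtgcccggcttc
Sf3b2: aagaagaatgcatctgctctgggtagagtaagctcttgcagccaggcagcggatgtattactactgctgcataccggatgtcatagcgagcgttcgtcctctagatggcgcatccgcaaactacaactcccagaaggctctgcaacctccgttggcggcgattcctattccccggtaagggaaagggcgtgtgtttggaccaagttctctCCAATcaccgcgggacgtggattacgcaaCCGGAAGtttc
Zc3h13: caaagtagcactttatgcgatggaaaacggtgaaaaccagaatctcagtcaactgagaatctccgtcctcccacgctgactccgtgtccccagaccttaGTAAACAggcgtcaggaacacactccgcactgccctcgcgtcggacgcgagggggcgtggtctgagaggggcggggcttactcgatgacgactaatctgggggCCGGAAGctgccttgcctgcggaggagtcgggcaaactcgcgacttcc
Hnrnpdl: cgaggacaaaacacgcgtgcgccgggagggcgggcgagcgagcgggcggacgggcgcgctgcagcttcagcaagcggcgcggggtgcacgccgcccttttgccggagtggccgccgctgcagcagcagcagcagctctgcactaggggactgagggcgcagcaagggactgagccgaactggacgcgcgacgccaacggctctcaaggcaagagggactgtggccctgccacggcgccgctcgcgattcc
Ddx1: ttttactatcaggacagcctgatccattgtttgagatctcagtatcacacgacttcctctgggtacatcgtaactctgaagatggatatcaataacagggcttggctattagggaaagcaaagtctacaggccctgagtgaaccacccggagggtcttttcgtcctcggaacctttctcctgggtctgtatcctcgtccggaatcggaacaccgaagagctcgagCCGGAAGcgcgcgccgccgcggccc

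The 7 motifs were the FoxO core GTAAACA, the ETS site CCGGAAG, the NRF1 site, the cyclic AMP response element TGACGTCA, the CCAAT box CCAAT, the TATA box TATAAA and the E-box CACGTG, and no motif of this set contains another. RefSeq promoters were found for 64 of the 73 genes, taking the first listed start of each gene. The ETS letters stood in 16 of these 64 promoters (25%), against 13.7% of the promoters of 3177 other genes with a symbol and 7.05% of all 27025 promoters. They were present in 12 of 37 promoters of genes whose probe sets were all lower in the knockout lines, in 3 of 19 of genes whose probe sets were all higher and in 1 of 8 of genes whose probe sets disagreed. No split by direction is given here for other genes with a symbol, so nothing is read from that of the members. The FoxO core, bound by transcription factors that Akt keeps out of the nucleus, stood in 3 of 64 member promoters (4.69%), against 2.3% in other genes with a symbol and 3.09% of all promoters, and 1 of these is the Zc3h13 promoter printed above. The CCAAT box was found in 27 member promoters (42.2%), against 34.4% of those of other genes with a symbol and 34.5% of all. Hnrnpab holds it 3 times. TATA letters were found in 5 member promoters (7.8%), against 7.0% in other genes with a symbol and 13.0% of all promoters. E-box letters stood in 5 (7.8%, against 8.6% in other genes with a symbol). The cyclic AMP response element stood in 2 (3.1% against 2.9%) and the NRF1 site in 1 (1.6% against 1.5%). Median GC content was 59.6% for member promoters, against 60% for other genes with a symbol, with 64.8% where all probe sets were higher and 58% where all were lower. Here too the other genes are given without such a split. A match is a description of these letters, and binding was not measured.

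Akt1 was low in each knockout line. Its brighter probe set read 4.62, 4.57 and 4.38 log2 units in lines 72, 75 and 116, against 9.71, 10.09 and 10.03 in lines 31, 101 and 102, which matches the labels. Of the 8 epithelial markers examined 5 had a symbol, with 4 probe sets higher and 2 lower in the knockout lines and a mean level of 9.98 to 10.38 in knockout and 9.81 to 9.92 in wild-type lines. Cldn3 and Tacstd1 (now Epcam) were 1.67 and 0.80 higher and the probe sets of Krt8, a keratin of luminal cells, 0.31 and 0.21 higher, while Cdh1 and Cldn7 differed by -0.70 and -0.48. The probe sets of Tacstd1 and Krt8 end in _x_at, the array maker's mark for probes that also match other sequences. Those of Cldn3, Cdh1 and Cldn7 end in plain _at. None of these epithelial probe sets passed an adjusted p of 0.05 (limma adjusted p from 0.0866 to 0.483). None of 9 fibroblast markers had a symbol, which does not show whether such cells were absent. Of 5 endothelial markers Plvap had one, at 7.93 to 8.44 in knockout and 8.79 to 10.24 in wild-type lines. Of 7 leukocyte markers 3 had one, with a mean level of 6.08 to 6.34 in knockout and 6.30 to 6.57 in wild-type lines. They went in opposite directions, with Cd8a 0.87 higher and Laptm5 and Coro1a at -0.79 and -0.69. The part of these cells in the values below was not tested, and fewer cells of a type cannot be told apart from less RNA per cell.

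Most member probe sets were lower in the knockout lines. Of 120, 71 were lower and 49 higher. The higher share was 40.8%, against 46.3% over all probe sets with a symbol and 53.9% over all non-control probe sets. Counts of direction by role, given below, are to be read beside these shares. The median difference was -0.47 log2 units, against -0.27 over all probe sets with a symbol and 0.03 over all non-control probe sets. The lower members differed by a median of -0.83 and the higher ones by 0.52. A difference of at least 1 log2 unit was seen in 25 lower and 4 higher members, each with an unadjusted p under 0.05 in the limma fit. On the whole array 2.8% of probe sets met that limit, 2.14% lower and 0.668% higher. The deposited fold sheet of the authors lists the members likewise, 25 lower and 4 higher. The groups did not overlap in any of the 120 members, as in 21.9% of all probe sets, and since the members were chosen by this comparison nothing is read from either share.

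**Figure D1:**
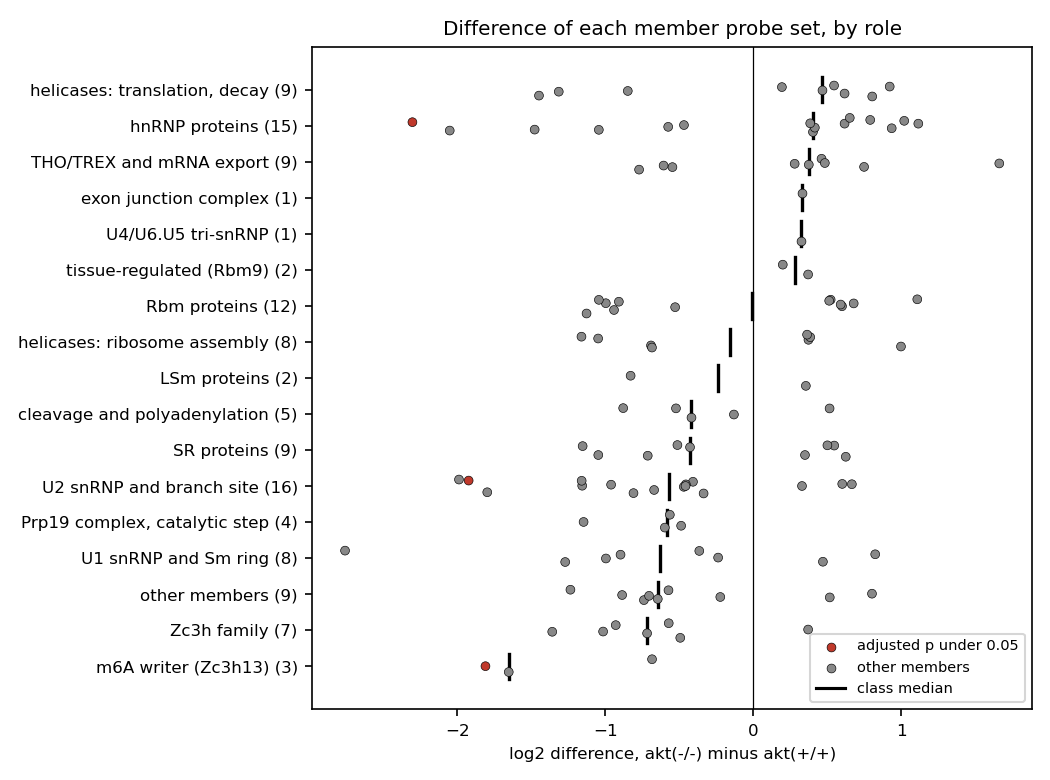
Log2 difference (akt(-/-) minus akt(+/+), horizontal axis) of each of the 120 member probe sets, 1 point each, by role, with the number of probe sets in brackets and a bar at the median of the role. Medians run from -1.65 for the m6A writer Zc3h13 to 0.47 for helicases of translation and decay, and the 3 red points, all on the left, have an adjusted p under 0.05.

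With Benjamini-Hochberg adjustment over all 45037 probe sets, 3 members had an adjusted p under 0.05 in limma, all lower in the knockout lines, where 0.107% of all probe sets passed and 0.0977% passed as lower. They belong to Sf3b2, Hnrpab and Zc3h13, which act in different steps of RNA processing. Without knockout line 75 the count was 12, of which 11 were lower, and it held all 3; without any other line it was 0 (limma). Over the whole array the count moved likewise, to 327 without line 75 and to 1 or 2 without any other line, against 48 with all lines. The 9 added were Snrp70, Hnrpr, Rbm5, Rbm26, Ddx6, Ddx10, Sf3b3 and a second Zc3h13 probe set, all lower, and Thoc1, which was higher.

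Sf3b2 encodes a subunit of SF3b, the part of U2 snRNP that holds the branch site. Probe set 1429362_a_at read 7.59, 7.55 and 7.30 log2 units in knockout lines 72, 75 and 116, against 9.67, 9.18 and 9.37 in wild-type lines 31, 101 and 102. The lowest wild-type line lay 1.59 above the highest knockout line, and the level fell by 1.92 (3.79-fold, SE 0.17, limma adjusted p = 0.0346). Its other probe sets were lower too, by differences of -0.96 (1456040_at) and -0.67 (1456352_a_at), neither of which passed.

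Hnrpab (now Hnrnpab) encodes an RNA-binding protein of the hnRNP A/B group, and its probe sets disagreed. For 1426114_at the knockout lines read 10.47, 10.76 and 10.44, against 12.44 to 13.23 in the wild-type lines, so that the level fell by 2.30 (4.93-fold, SE 0.22, limma adjusted p = 0.0377). A second probe set of almost the same mean level, 1415914_at, read 11.91, 12.07 and 11.95 in the knockout lines, against 11.64, 11.69 and 11.36 in the wild-type lines. There every knockout line lay above every wild-type line, by a mean of 0.42 log2 units that did not pass (limma adjusted p = 0.248).

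Zc3h13, a CCCH zinc finger protein, is a component of the complex that writes N6-methyladenosine on messenger RNA. Probe set 1430568_at read 5.59, 5.98 and 5.48 in the knockout lines, against 7.39, 7.46 and 7.63 in the wild-type lines, and fell by 1.81 (3.50-fold, SE 0.17, limma adjusted p = 0.0361). The other probe sets, 1459488_at and 1447581_at, differed by -1.65 and -0.68 at mean levels of 3.53 and 3.26 in the knockout lines, under the 25th percentile of each array, which ran from 3.71 to 3.81. All 3 were lower in each knockout line than in any wild-type line.

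**Figure D2:**
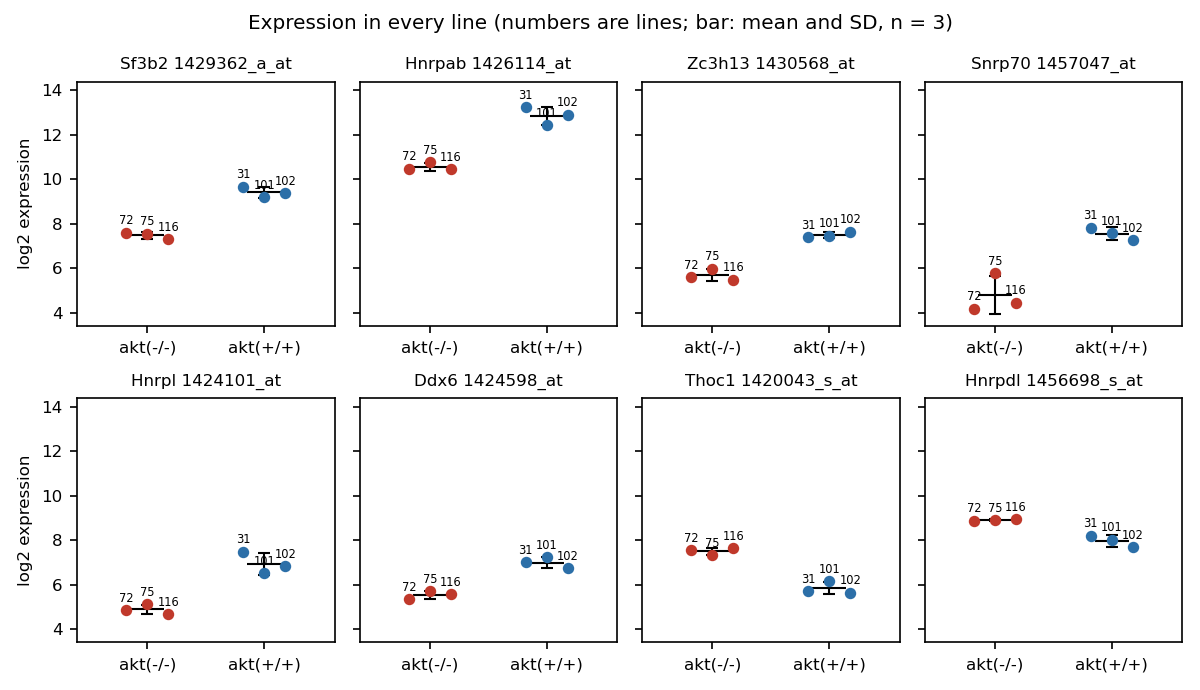
Log2 expression (vertical axis) of 8 member probe sets in each line, akt(-/-) in red and akt(+/+) in blue, with line numbers and the mean ± SD of 3 lines. Sf3b2, Hnrpab and Zc3h13 passed an adjusted p of 0.05, Thoc1 and Hnrpdl lie higher in the knockout lines, and Snrp70 shows line 75 above lines 72 and 116.

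Within U2 snRNP and the branch site factors, 13 of 16 member probe sets were lower, with a median of -0.57. Sf3b3, another SF3b subunit, read 7.26, 8.52 and 7.55 in knockout lines 72, 75 and 116, against 8.79 to 9.07 in the wild-type lines, so that line 75 stood closest to the wild type. Rbm5, a branch site and alternative splicing factor, differed by -1.16 at its brightest probe set, and by -1.99 and -0.34 at the others. In 1438069_a_at its knockout lines were spread from 4.04 in line 72 to 5.82 in line 75. Ddx46, the helicase that prepares U2 snRNP for the branch site, averaged 4.61 ± 0.55 in knockout and 6.41 ± 0.42 in wild-type lines (SD, n = 3 each). The small subunits Sf3a2 and Sf3b5 differed by -0.47 and -0.46, and the alternative splicing factor Rbm10 by -0.41 and -0.46.

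Members of this group that lay higher were Dhx15, the helicase that takes the spliceosome apart, by 0.67, Snrpa1, a U2-specific protein, by 0.33, and 1 probe set of Sf3b1. Sf3b1, the large scaffold of SF3b and a gene mutated in human blood cancers, read 8.85, 9.68 and 9.41 in the knockout lines with 1418562_at, against 10.25, 10.23 and 9.89 in the wild-type lines. With 1440818_s_at it read 9.40, 9.93 and 9.75 in the knockout lines, against 9.20, 9.14 and 8.92. The differences, -0.81 and 0.60, were of opposite sign in the same 6 RNA samples.

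U1 snRNP and Sm ring genes were lower in 6 of 8 probe sets. Snrp70 (now Snrnp70), which binds U1 RNA directly, had the lowest difference of all members: it read 4.17, 5.78 and 4.45 in knockout lines 72, 75 and 116, against 7.83, 7.59 and 7.25 in the wild-type lines. Its difference was -2.76, 6.76-fold lower, and did not pass with all 6 lines (limma adjusted p = 0.0719), and the SD of the knockout lines was 0.86. Without line 75 the difference was -3.25 (limma adjusted p = 0.0359). Line 75 was the knockout line nearest the wild type, so that leaving it out had to enlarge the difference, and nothing is read from that p. Snrp70 did not pass without any other line. The Sm core gene Snrpd3 differed by -0.90, the U1 gene Snrpa by -0.36 and Snrpn, an imprinted Sm gene, by -0.24.

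Later steps of splicing had fewer members. All 3 probe sets of Prpf19, the ubiquitin ligase that gives the Prp19 complex its name, were lower, and 1460633_at read 6.95, 6.502 and 6.68 in the knockout lines, against 8.13, 7.69 and 7.74 in the wild-type lines. Here line 75 was the lowest of the knockout lines, unlike in Snrp70 and Sf3b3. Probe set 1460633_at differed by -1.15, and the brighter 1419839_x_at and 1449635_at by -0.60 and -0.56. None of the 3 passed (limma adjusted p from 0.0776 to 0.159). Dhx16, a helicase of the catalytic step, differed by -0.49, and Prpf38b was 0.32 higher. Of the LSm family proteins found in P-bodies, Lsm14b differed by -0.83 and Lsm14a was 0.35 higher at a low level. Ddx48, the exon junction helicase now named Eif4a3, was 0.33 higher.

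Among SR proteins, 4 of 9 probe sets were higher and 5 lower. Sfrs3 (now Srsf3) was higher in all 3 probe sets, with 1454993_a_at at 10.01, 10.32 and 10.08 in the knockout lines, against 9.69, 9.65 and 9.56 in the wild-type lines. Sfrs6 (now Srsf6) was 0.62 higher at 10.77 ± 0.24 in knockout and 10.15 ± 0.17 in wild-type lines (SD, n = 3 each). Sfrs10, the transformer-2 homolog now named Tra2b, differed by -1.15 and -0.71, Sfrs4 (now Srsf4) by -1.05, Sfrs14 (now Sugp2) by -0.51 and Sfrs2 (now Srsf2) by -0.43. None of the 9 probe sets passed; all 9 had an unadjusted p under 0.05 in limma, as did 113 of the 120 members and 15.4% of all probe sets, and since a deposited p under 0.05 chose the members nothing is read from that. Outside that class, the 3 probe sets of Sfrs8 (now Sfswap), a regulator of alternative splicing, were all lower, by -0.70 to -0.89.

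hnRNP genes went both ways, with 9 of 15 probe sets higher and a median of 0.40. Hnrpdl (now Hnrnpdl), related to the AU-rich element binding protein Hnrpd, was higher in all 3 probe sets, by 1.11, 1.02 and 0.93. Its brightest, 1456698_s_at, read 8.88, 8.90 and 8.94 in the knockout lines, against 8.21, 8.03 and 7.68 in the wild-type lines. Hnrpd was 0.79 higher, Hnrpll, a splicing regulator studied in T cells, 0.65 higher, and Hnrpa2b1 0.62 and 0.40 higher. In the other direction Hnrpl, which binds CA repeats, read 4.86, 5.12 and 4.68 in the knockout lines, against 7.49, 6.503 and 6.82 in the wild-type lines (difference -2.05, limma adjusted p = 0.0578). Both probe sets of Hnrpr were lower, at -1.48 and -1.04, and Hnrph3 differed by -0.47. Hnrpc, an abundant protein that coats nascent transcripts, differed by -0.57 at its bright probe set (11.27 over the 6 lines) and was 0.38 higher at a probe set of mean 2.71.

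Helicases outside the spliceosome were divided by direction. In ribosome assembly, Ddx18 read 7.14, 7.37 and 7.38 in the knockout lines, against 8.65, 8.39 and 8.33 in the wild-type lines (difference -1.16, limma adjusted p = 0.0538). Ddx10, Ddx49 and Ddx55 differed by -1.05, -0.69 and -0.68. Ddx52 was 0.997 and 0.37 higher in its probe sets and Ddx54 0.38 and 0.36 higher. In translation and decay, Ddx6, which drives messages into storage and decay, was lower in both probe sets, at -1.45 and -1.31. Its 1424598_at read 5.34, 5.71 and 5.58 in the knockout lines, against 7.01, 7.23 and 6.74 in the wild-type lines (limma adjusted p = 0.0538). Ddx5, a coregulator of splicing and transcription, was 0.92 and 0.55 higher, Ddx1 0.80 and the X-linked translation helicase Ddx3x 0.62 higher. Dhx30, a helicase of mitochondrial ribosome assembly, was lower at 1416140_a_at (-0.85) and higher at both of its other probe sets (0.47 and 0.19). Ddx50 differed by -0.57.

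In the THO complex, which packages new messages for export, Thoc1 had the highest difference of all members. Probe set 1420043_s_at read 7.54, 7.32 and 7.63 in the knockout lines, against 5.71, 6.16 and 5.64 in the wild-type lines, 1.66 higher (limma adjusted p = 0.05004, just over the threshold). Its adjusted p in limma was 0.0493 after quantile normalization and 0.0465 with dim probe sets left out. A second Thoc1 probe set, 1420042_at, was 0.75 higher at a mean level of 3.93 and did not pass (limma adjusted p = 0.163). Thoc3 differed by -0.77, and Thoc7 was 0.48 higher at its bright probe set and -0.61 at its dim one. Ddx39 (now Ddx39a), a helicase of the export pathway, was higher in 3 of 4 probe sets.

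Genes for cleavage and polyadenylation were lower in 4 of 5 probe sets. Cstf2, whose protein binds the GU-rich element after the poly(A) site, differed by -0.42 and Cstf1 by -0.13, the smallest difference of any member. Cpsf6 differed by -0.88 at a level of 2.34 ± 0.36 in knockout and 3.22 ± 0.28 in wild-type lines (SD, n = 3 each), which is dim. Cpsf2 split evenly, 0.52 higher in 1420936_s_at and -0.52 in 1420937_at.

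Of the Zc3h genes other than Zc3h13, 6 of 7 probe sets in the class were lower. All 4 probe sets of Zc3h11a, linked to messenger export, were lower by -0.72 to -1.36, and 1455998_at read 5.37, 6.01 and 6.05 in the knockout lines, against 7.20, 7.16 and 7.15 in the wild-type lines. Zc3h7b and Zc3h10 differed by -0.49 and -0.57, and Zc3h12c was 0.37 higher. Zc3h5, now named Unk, was grouped separately and differed by -0.65. Of the Rbm genes, Rbm26 read 6.93, 7.11 and 7.12 in the knockout lines, against 8.15, 8.10 and 8.29 in the wild-type lines (difference -1.13, limma adjusted p = 0.0506). Rbm4 differed by -1.04 while its neighbour in sequence, Rbm4b, was 0.68 higher. The cold-induced Rbm3 differed by -0.996, Rbm6 by -0.94 and -0.91. Rbm39, a partner of U2AF-type splicing factors, was 1.11 and 0.51 higher, Rbm18 0.59 higher and Rbm9, now named Rbfox2, 0.37 and 0.20 higher.

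Several genes gave opposite answers from different probe sets. Of 30 member genes with 2 or more probe sets, 11 had all lower, 9 had all higher and 10 had both directions (33.3%). Among 844 other genes with 2 or more named probe sets, 26.4% had both directions. Among the 10 were Cpsf2, Ddx39, Dhx30, Hnrpab, Hnrpc, Rbm12, Sf3b1, Sfrs2ip and Thoc7. Over all 10, the brightest probe set was higher in the knockout lines in 4 and lower in 6. Sfrs2ip, now named Scaf11, had 4 probe sets: 1452885_at read 7.63, 7.77 and 8.13 in the knockout lines, against 9.25, 9.004 and 8.99 in the wild-type lines (difference -1.24), while 1434691_at and 1460445_at were 0.80 and 0.52 higher and 1443085_at differed by -0.22. Rbm12 was 0.60 and 0.52 higher in a pair of probe sets and differed by -0.53 in another. Which exons or transcript ends these probe sets read is not given in the files.

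**Figure D3:**
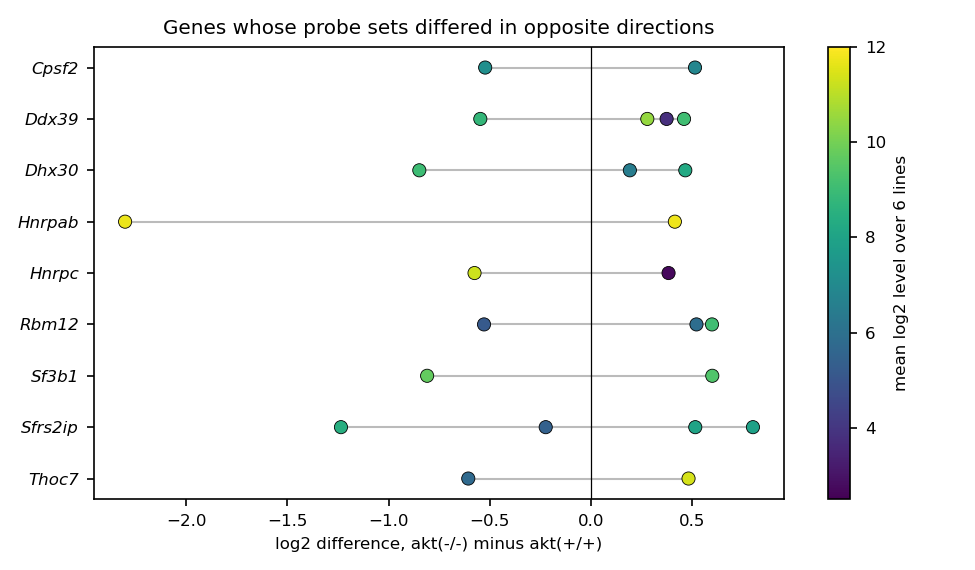
Log2 difference (akt(-/-) minus akt(+/+), horizontal axis) of every member probe set of 9 genes whose probe sets went in opposite directions, coloured by the mean level over 6 lines. Hnrpab spans -2.30 to 0.42 with probe sets of nearly equal brightness, whereas the higher probe set of Hnrpc is dim.

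Direction went with the kind of probe set. In the array maker's naming, _x_at marks probe sets with probes that also match other sequences and _s_at those shared by transcripts of several genes. Of 13 members ending in _x_at 12 were higher in the knockout lines, all but Prpf19, and of 6 ending in _s_at 5 were, all but Sfrs2. Of 83 members ending in plain _at 24 were higher, and of 18 ending in _a_at 8 were. Other probe sets with a symbol leaned the same way for _x_at, with 74.9% of those higher and 45.4% of those in plain _at. Their share was 53.1% in _s_at and 36.3% in _a_at, so that _a_at lay under plain _at, unlike among the members. Over all probe sets of the array, which the p-value did not choose, 65.1% of those in _x_at and 53.8% of those in plain _at were higher, with median differences of 0.10 and 0.03. In _s_at and _a_at these shares were 55.5% and 47.7%. The values of Ddx5, Ddx1, Ddx54, Snrpa1 and the higher probe sets of Dhx30 come from _x_at probe sets alone. The larger value of Hnrpa2b1 comes from an _x_at probe set too, and Prpf19 1419839_x_at, Sfrs3 1434512_x_at and Ddx39 1438168_x_at and 1438287_x_at are of this kind. The values of Sfrs6 and Sfrs2 come from _s_at probe sets alone. So do the largest difference of Thoc1, the brightest probe set of Hnrpdl and the higher values of Sf3b1 and Cpsf2. In all of these, signal from related sequences cannot be told apart from that of the named gene.

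Members were also bright. Their mean level over the 6 lines had a median of 7.36 log2 units, against 6.11 for all probe sets with a symbol and 5.46 for all non-control probe sets, and ran from 2.71 to 11.77. The higher members had a median level of 8.23 and the lower ones 6.81, and over all probe sets with a symbol the higher ones lay at 5.72 and the lower ones at 6.38. By level, 3 of 5 members under 4 log2 units were higher, 8 of 25 at 4 to 6, 12 of 42 at 6 to 8, 15 of 30 at 8 to 10 and 11 of 18 at 10 and over. Of the other probe sets with a symbol 61.9%, 45.9%, 37.0%, 43.5% and 53.1% were higher in the same order of bins. Levels of different probe sets are not comparable as amounts of RNA.

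**Figure D4:**
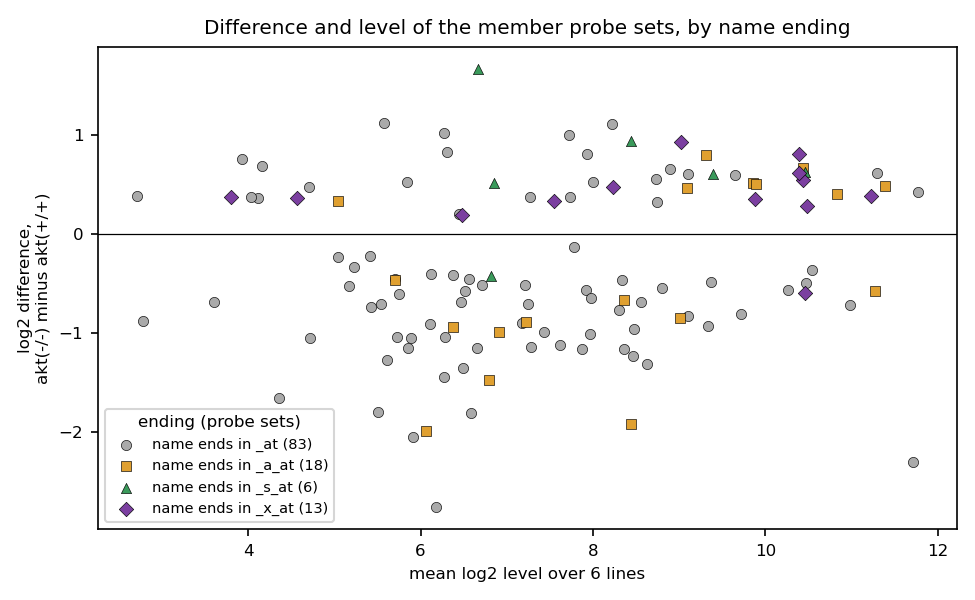
Log2 difference (akt(-/-) minus akt(+/+), vertical axis) against the mean log2 level over 6 lines (horizontal axis) of the 120 member probe sets, with the ending of the probe set name as symbol. Diamonds (_x_at) lie above 0 in 12 of 13 cases.

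Knockout line 75 was the closest to the wild type in most lower members. For 47 of the 71 lower members (66.2%) line 75 was the highest knockout line, against 13 for line 72 and 11 for line 116; among 2940 other lower probe sets with a symbol the share for line 75 was 50.1%. The median difference of the lower members from the wild-type mean was -0.93 in line 72, -0.58 in line 75 and -0.85 in line 116. In the 49 higher members line 75 was closest to the wild type in 16 and line 72 in 24. The wild-type lines shared that place more evenly among the lower members, with 19 for line 31, 23 for line 101 and 29 for line 102. These counts describe single lines, and no test of 1 line against the others was possible.

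**Figure D5:**
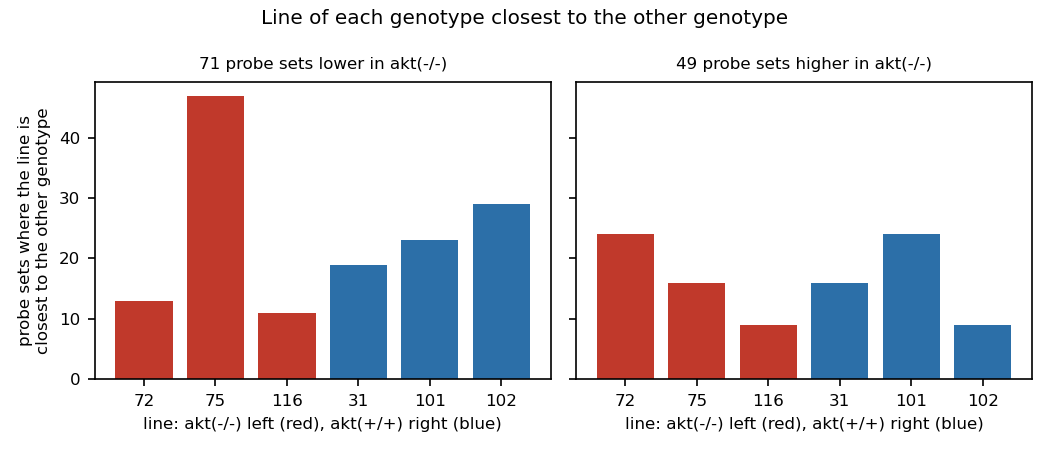
Number of member probe sets (vertical axis) in which each line is, within its genotype, the closest to the other genotype, for the 71 lower (left) and 49 higher (right) members, akt(-/-) lines in red and akt(+/+) lines in blue. Line 75 holds this place in 47 of the 71 lower members.

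Other genes of RNA processing, from 18 lists of 341 genes, had a symbol in 131 cases, of which 62 lay outside the symbol rule. By the brightest probe set 40 of these 62 were lower in the knockout lines and 22 higher, and the median difference over their 90 probe sets was -0.55. None passed in limma. An unadjusted p under 0.05 was found for 82 of the 90, against 15.4% of all probe sets, and 22 of them also differed at least 2-fold, 21 lower, against 2.8% of all probe sets. A symbol required a deposited p under 0.05 here too, so nothing is read from these counts. In cleavage and polyadenylation all 10 genes with a symbol were lower by the brightest probe set, members included, among them Pcf11 (-1.58), Wdr33 (-1.17) and the scaffold Sympk (-0.97). A dimmer probe set each of Pabpn1 and Cpsf2 was higher, by 0.48 and 0.52, while the other probe sets of Pabpn1 differed by -0.56 to -2.18. Of the SR list, Srrm2, Srrm1 and 5730406M06Rik (now Pnisr), which carry arginine-serine repeats, differed by -1.36, -1.16 and -1.06. In the exon junction list Acin1 differed by -1.76 and Pnn, which sits at exon junctions, by -1.11. The only SR protein kinases with a symbol, Srpk2 and Srpk3, were 0.41 and 0.45 higher by the brightest probe set, while a dim probe set of Srpk2 differed by -0.51.

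Of the 9 genes with a symbol in the list of RNA methylation, Zc3h13 included, 5 were higher and 4 lower by the brightest probe set, with a median of 0.44. Ythdf2, a reader that sends methylated messages to decay, read 6.31, 8.18 and 6.06 in lines 72, 75 and 116 and averaged 6.85 ± 1.16 in knockout and 9.42 ± 0.29 in wild-type lines, and the eraser Alkbh5 averaged 9.19 ± 0.19 against 10.54 ± 0.38 (SD, n = 3 each). Wtap, a writer subunit, was 0.70 higher. The other genes of the list, named after their values were seen, were G430022H21Rik (now Mettl14), 0.58 higher, the readers A730098D12Rik (now Ythdc1), Ythdc2 and Ythdf3, 0.54, 0.55 and 0.44 higher, and the eraser Fto, at -0.55. A second probe set of Ythdf3 differed by -1.11. Of the assembly factors for snRNPs Strap was 1.08 higher, the sole one of the 90 list probe sets that was at least 2-fold higher with an unadjusted p under 0.05, while Gemin5 and Smn1 differed by -1.03 and -0.90. In the hnRNP list Pcbp2 differed by -1.07 and Raly was 0.76 higher, and among regulators of tissue-specific splicing Taf15, Tia1 and Cugbp1 (now Celf1) differed by -0.90, -0.80 and -0.69.

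Signals that do not come from these genes also differed between the genotypes. The bioC hybridisation spike-in read 7.62, 7.86 and 7.96 in the knockout lines, against 9.03, 9.25 and 8.95 in the wild-type lines, while bioB, bioD and cre differed by 0.06, -0.19 and 0.03. The gap between the 3′ and 5′ probe sets of Actb, a measure of RNA integrity and of how far the amplification reached, was 3.48 ± 0.05 in knockout and 3.05 ± 0.22 in wild-type lines (SD, n = 3 each), and that of Gapdh 3.52 ± 0.35 and 2.77 ± 0.63. The exact two-sided permutation p was 0.1 for bioC and for Actb, the smallest that 3 against 3 arrays allow, and 0.2 for Gapdh, or 0.3, 0.3 and 0.4 adjusted over 6 measures. Their part in the differences of the member probe sets, and in the disagreement between probe sets of a gene, was not tested.

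Near the limit of the rule lay Rbm39 1426671_a_at, Rbm12 1456964_at and Ddx54 1438853_x_at, with deposited p-values of 0.0497, 0.0493 and 0.0471 in the authors' deposited table and differences of 0.51, 0.52 and 0.38. The gap between the groups was 0.10, 0.09 and 0.17 log2 units. Probe sets just outside the limit carry no symbol and are not named here.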

How the data were processed

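Gene expression was measured on 1 array for each of 3 akt(-/-) and 3 akt(+/+) lines. Per the labels' protocols, an input of 50 ng RNA went through whole-transcript amplification and biotin labelling. The authors deposited log2 expression values; the sources used here do not state scanning, background correction, summary or normalization. Array medians lay between 5.41 and 5.50, and a second deposited value table differed by at most 5e-09. Beside these stand the authors' deposited p-values for 45101 probe sets (64 are controls), a log2 difference where that p was under 0.05, and a signed fold score.

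The values were fitted with limma 3.58.1 in R 4.3.3 (lmFit, eBayes, no covariate) over 45037 non-control probe sets, with Benjamini-Hochberg adjustment over all of them and a threshold of 0.05. The fit was tested on simulated data. Symbols were updated through the RefSeq table of GRCm38.p6: 51 of 73 are current and 22 matched as synonyms, with Sfrs10 settled by its deposited name. Genes were named if past the threshold, if among the 4 largest differences each way in a role, if they had 2 or more member probe sets or lay nearest the deposited p limit; outside the rule, up to 3 per list, by the brightest probe set. Sf3a2, Sf3b5, Snrpn and, outside the rule, Pabpn1 were named although they met none of these limits. The members and the lists were chosen with earlier results of these data known. The number of arrays limits the precision, and the median standard error of the members was 0.17 log2 units. Alternatives were quantile normalization, median centring, an intensity trend, a filter on dim probe sets and leaving out each line. Protein features of the members were planned and not computed, and 1 member gene is counted but not reported by name here.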

Additional observations from a re-analysis of the deposited data

How the results depend on the processing

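The counts and the median kept close to their values under quantile normalization, median centring, an intensity trend and a filter on dim probe sets, with 3 to 4 members past an adjusted p of 0.05, 27 to 29 past the looser limit and medians from -0.47 to -0.42; over the whole array 35 to 62 passed. Leaving out lines gave 0 to 12 members past the threshold (327 over the whole array without line 75, and 1 to 2 without any other), 23 to 36 past the looser limit and medians from -0.49 to -0.42. The direction split, 71 lower and 49 higher, was the same in every one of these fits except with dim probe sets left out, where 118 members gave 70 and 48. The groups did not overlap in any member, so leaving out a line could not turn a direction. Nothing is read from the unchanged directions in those fits, here or in the single probe sets below. With 1 probe set per symbol the median was -0.49, and by the deposited p and fold 29 members passed the looser limit. For the 72 single probe sets recomputed, no alternative turned a direction; of 719 values, 15 lost their call, all without a line, and 9 gained one, 7 of them without line 75 and the others Thoc1 under quantile normalization and the dim filter. The adjusted p in limma ranged from 0.0346 to 0.163 for Sf3b2, from 0.0361 to 0.18 for Hnrpab and from 0.0359 to 0.163 for Zc3h13. The cause of these changes was not tested. No paired analysis was possible because the line numbers of the genotypes are not shared. Dim probe sets limit the values of Hnrpc 1458139_at, Cpsf6 and Zc3h13 1447581_at, whose means lay under the 25th percentile of each array. Outside the rule this also holds for Taf15.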
